A study of Mus musculus with 12 samples.

Results

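The BCL2 family decides whether a stressed cell opens its mitochondria and dies, and 10 of its genes were followed here after Salmonella was injected intravenously into mice bearing MC38 tumours (MC38 is a colon cancer line of the mouse). The 10 genes were chosen by symbol: the pro-survival Bcl2, Bcl2l1, Mcl1 and Bcl2a1d, the effectors Bax and Bak1, and the BH3-only genes Bid, Bbc3, Pmaip1 and Bcl2l11. All 10 were found among the 18609 genes listed, and all 10 were among the 12164 tested. Total RNA of tumour tissue was sequenced in 12 libraries. Hosts were C57BL/6 mice, either TLR4 knockout or wild type (TLR4 is the innate receptor for bacterial lipopolysaccharide). The 4 groups were knockout hosts given Salmonella, knockout hosts given phosphate-buffered saline (PBS), wild-type hosts given Salmonella and wild-type hosts given PBS, all with MC38 tumours sampled after 1 day. Each group held 3 libraries, titled F-1, M-1 and M-2, and the labels do not say whether they came from separate animals, so p-values measure only the spread between these libraries. The labels also do not give the deleted part of Tlr4, the Salmonella strain or its dose.

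Pro-survival proteins of the family hold BAX and BAK in check at the outer mitochondrial membrane. BH3-only proteins are the stress sensors: they bind the pro-survival proteins, or activate BAX and BAK directly, and tip the balance towards release of cytochrome c and caspase activation. In tumours invaded by leukocytes the family also sets the lifespan of the immune cells, since neutrophils depend on MCL1 and A1, and many lymphocytes depend on BCL2. Transcript levels do not show protein levels, which for MCL1 and the BH3-only proteins are set largely by turnover and modification.

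The sequences shown first are the stretches upstream of the transcription start for the genes that the results turn on. They are the 250 bases before the start in RefSeq's GRCm38.p6 annotation. The files name no build. RefSeq's table held windows for 9 of the 10 genes, and Pmaip1 is named only. Bcl2a1d and Bcl2a1a are copies of 1 gene, A1, on the same chromosome, and are shown because their near-identity bears on how far the counts of each can be trusted. Capitals mark the 6 bases that differ between them and 6 bases, GAAGAG, added in the Bcl2a1a window next to a gaagag that both windows hold. Which of these repeats is in capitals was set by the alignment.
Bcl2a1d promoter, chr9:88731851-88732100, minus strand: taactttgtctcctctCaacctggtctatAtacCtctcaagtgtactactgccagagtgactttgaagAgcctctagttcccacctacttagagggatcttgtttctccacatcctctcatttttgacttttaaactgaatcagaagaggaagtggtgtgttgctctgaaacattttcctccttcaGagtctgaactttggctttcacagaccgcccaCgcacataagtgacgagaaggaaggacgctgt
Bcl2a1a promoter, chr9:88956670-88956919, plus strand: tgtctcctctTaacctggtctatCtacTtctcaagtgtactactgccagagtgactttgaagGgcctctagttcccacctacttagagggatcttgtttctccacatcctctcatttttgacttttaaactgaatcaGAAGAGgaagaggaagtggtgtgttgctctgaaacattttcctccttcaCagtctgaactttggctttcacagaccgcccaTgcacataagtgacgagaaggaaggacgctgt

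Over the 250 aligned positions of these windows 95.2% were identical. Bcl2a1a and Bcl2a1b were identical at 99.5% of 206 aligned positions. Among the longest GENCODE M21 transcripts Bcl2a1d matched Bcl2a1b at 99.1% and Bcl2a1a at 98.8% of positions, and Bcl2a1a matched Bcl2a1b at 98.2%, so fragments of these genes may have been split between the copies or set aside by the authors' counting, and the value of any 1 copy is uncertain.

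The windows of Bcl2, Mcl1, Bax and Bbc3 are shown because these genes passed the test in wild-type hosts. Capitals mark matches, on either strand, to 8 of the 9 motifs searched: the NF-kB site (GGG, any 3 bases, then TTCC), the AP-1 site (TGACTCA), the cyclic AMP response element (TGACGTCA), the E-box (CACGTG), the FOXO site (GTAAACA), the STAT site (TTC, any 3 bases, then GAA), the TATA box (TATAAA) and the p53 half-site. The GC box (GGGCGG) was searched too but is left in lower case, since 7 of the genes hold it.
Bcl2 promoter, chr1:106714291-106714540, minus strand: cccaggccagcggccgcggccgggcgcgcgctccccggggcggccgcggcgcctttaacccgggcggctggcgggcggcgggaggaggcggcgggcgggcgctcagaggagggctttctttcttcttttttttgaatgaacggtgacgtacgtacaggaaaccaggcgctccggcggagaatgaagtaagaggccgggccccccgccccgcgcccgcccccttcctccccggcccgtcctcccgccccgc
Mcl1 promoter, chr3:95658471-95658720, plus strand: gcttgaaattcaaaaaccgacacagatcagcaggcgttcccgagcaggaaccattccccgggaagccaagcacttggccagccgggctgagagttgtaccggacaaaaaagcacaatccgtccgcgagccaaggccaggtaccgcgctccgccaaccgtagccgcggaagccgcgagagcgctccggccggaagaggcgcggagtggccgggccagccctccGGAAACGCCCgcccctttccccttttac
Bax promoter, chr7:45466899-45467148, minus strand: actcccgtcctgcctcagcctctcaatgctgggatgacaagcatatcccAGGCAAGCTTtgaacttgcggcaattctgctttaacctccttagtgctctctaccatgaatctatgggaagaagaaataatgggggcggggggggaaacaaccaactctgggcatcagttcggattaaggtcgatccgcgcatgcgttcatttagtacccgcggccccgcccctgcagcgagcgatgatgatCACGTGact
Bbc3 promoter, chr7:16310011-16310260, plus strand: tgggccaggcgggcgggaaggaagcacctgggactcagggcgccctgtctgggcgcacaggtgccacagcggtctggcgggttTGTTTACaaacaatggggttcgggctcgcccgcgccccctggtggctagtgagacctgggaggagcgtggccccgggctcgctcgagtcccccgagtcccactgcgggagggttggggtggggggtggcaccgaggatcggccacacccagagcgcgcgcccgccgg

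NF-kB matches were present in 4.653% of 32817 windows of the same length. Such a match lay 28 to 19 bases before the start of Mcl1. Another lay 218 to 209 bases before a start of Bcl2l1, whose other annotated starts had none. In Bbc3 a match lay 136 to 127 bases before another of its 3 annotated starts than that shown. FOXO matches, present in 3.163% of windows, lay 167 to 161 bases before the Bbc3 start shown and 227 to 221 bases before a start of Bcl2l11. E-boxes, present in 6.021% of windows, lay 9 to 4 bases before the Bax start and 64 to 59 bases before the third Bbc3 start. The Bax window also held a p53 half-site 201 to 192 bases before the start, against 7.124% of windows. The Bcl2 and Bcl2a1 windows held none of these 8 motifs, which says only that these letters are not in these windows.

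Tumour libraries held 30512425 to 38764811 fragments, recovered from the deposited FPKM values (fragments normalized by gene length and library total). Tlr4 was read in every library, at 1.72, 1.96 and 1.82 FPKM in the knockout Salmonella libraries (F-1, then M-1, then M-2), against 2.62, 3.78 and 2.58 FPKM in wild-type Salmonella libraries. Under PBS it stood at 2.14, 3.15 and 1.59 FPKM in knockout hosts and at 2.58, 2.48 and 2.53 FPKM in wild-type hosts. The PBS groups overlapped, so the Tlr4 level does not check the host labels, and these are used as given. The 6 epithelial markers that colon cancer cells usually carry (Epcam, Krt8, Krt18, Krt19, Cdh1 and Cldn7) summed to 0.417 to 2.46 FPKM per library, and none passed the filter on low values. Markers of several other cell types moved with Salmonella. The 14 neutrophil markers, led by S100a8 and S100a9, summed to 566 to 1005 FPKM in knockout Salmonella libraries, against 22.1 to 37.2 FPKM in knockout PBS libraries, and to 2881 to 19201 FPKM in wild-type Salmonella libraries, against 28.8 to 35.4 FPKM in wild-type PBS libraries. Ly6g, a defining neutrophil marker, was at 0 in 5 of the 6 PBS libraries. In wild-type hosts 7 of 8 endothelial markers were higher with Salmonella (79.7 to 98.4 FPKM summed, against 32.2 to 46.3 under PBS), as were 5 of 6 erythroid and platelet markers (270 to 454 FPKM, against 33.4 to 66.1) and 4 of 5 tested skeletal muscle markers (43.1 to 91.4 FPKM for all 6 listed, against 4.02 to 8.7). Fibroblast markers gave 4 higher and 1 lower of 7, macrophage and monocyte markers 2 higher and 2 lower of 12, dendritic cell markers 1 lower of 2 tested, and B cell markers 0 of 3 tested. Of all tested genes 35.4% passed in wild-type hosts and 0.756% in knockout hosts. In knockout hosts 6 of 14 neutrophil and 1 of 6 erythroid and platelet markers were higher with Salmonella. There 1 of 2 tested dendritic cell markers was lower, and no endothelial, fibroblast, skeletal muscle or macrophage and monocyte marker passed. The part of these cell types in the results below was not tested. Fewer cells of a type and less RNA per cell cannot be told apart in such bulk samples. Library M-2 of the wild-type Salmonella group stood apart from its mates: its scaling factor was 1.03, against 0.844 and 0.845 for F-1 and M-1, and values without it are given where they change a call.

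Among pro-survival genes, Mcl1 was the most abundant transcript in all 12 libraries and Bcl2 the scarcest. Mcl1 made up 64.4% to 72.3% of the summed FPKM of the 4 pro-survival genes. Bcl2l1 averaged 14.7 to 16.0 FPKM in the 4 groups and Bcl2a1d 7.85 to 13.8 FPKM, while Bcl2 averaged 0.917 to 2.27 FPKM. On the pro-apoptotic side Bax and Bak1 together made up 82.3% to 88.6% of the summed FPKM. The BH3-only genes were lower and descended from Bid, with group means of 12.9 to 18.5 FPKM, through Bbc3, at 5.87 to 9.72 FPKM, and Bcl2l11, at 5.25 to 7.56 FPKM, to Pmaip1, at 0.588 to 2.29 FPKM. Neighbours Bbc3 and Bcl2l11 overlapped across libraries, as did Bcl2l1 and Bid.

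**Figure D1:**
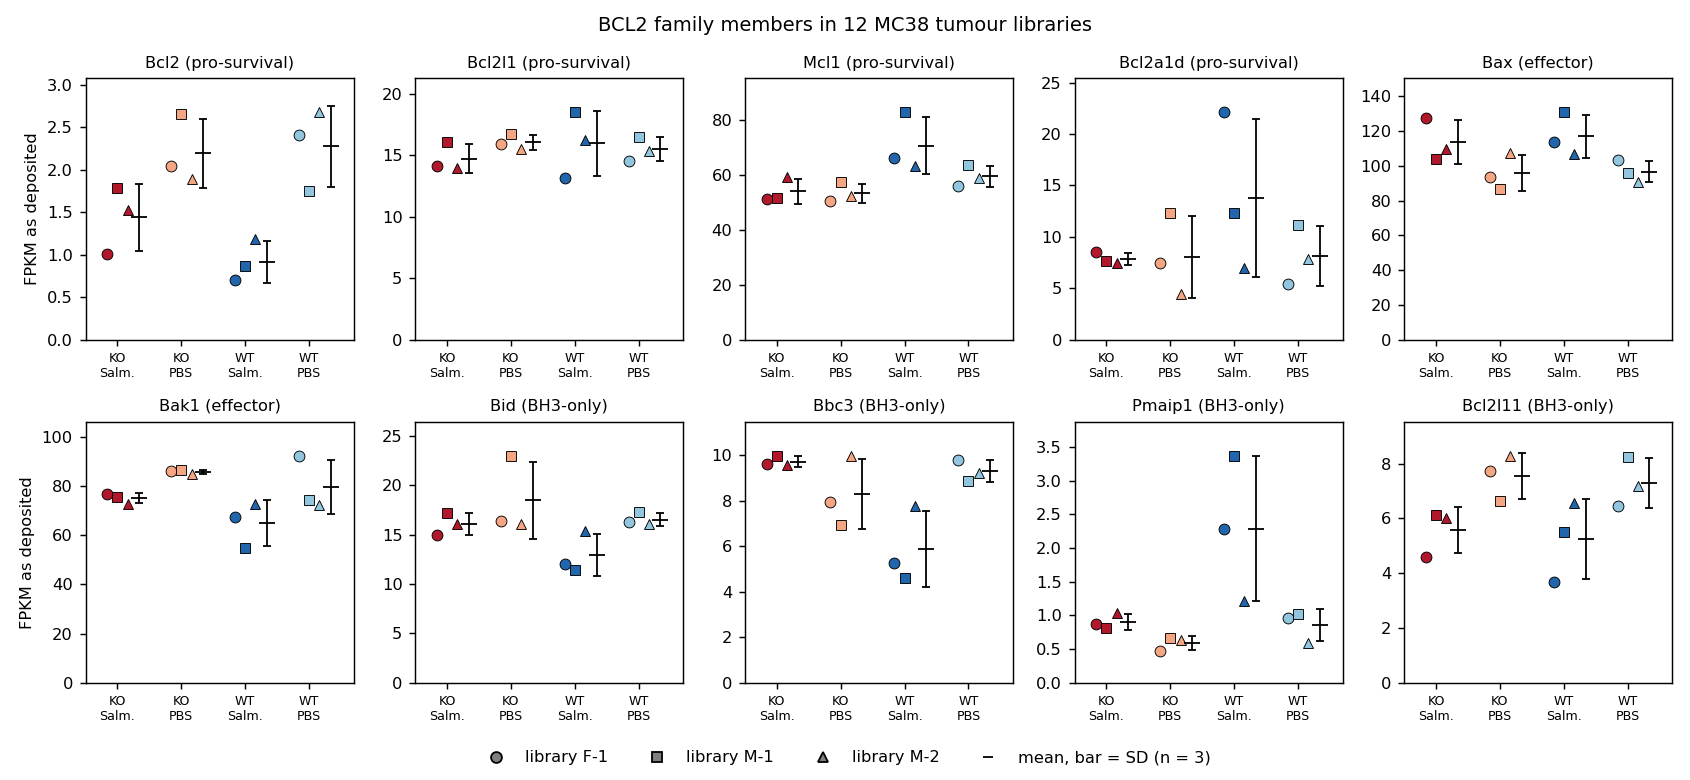
Deposited FPKM (y axis, from 0, a scale for each gene) of the 10 BCL2 family genes in the 4 groups of 3 libraries: each symbol is a library, and the bar beside them is the mean with its SD. Both Bcl2 and Bbc3 are lower in 2 of the 3 wild-type Salmonella libraries than in any other library.

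In wild-type hosts Salmonella went with changes on both sides of the family. Salmonella tumours had less Bcl2 and less Bbc3 (PUMA, a BH3-only protein that p53 induces) and more Pmaip1 (NOXA, the BH3-only protein that binds MCL1), more Bax and more Mcl1 than PBS tumours. These 5 of the 10 genes passed the test, 3 higher and 2 lower, where 35.4% of all tested genes did (19.2% higher and 16.2% lower), so the count is not far from the background. By role, the calls were 1 higher and 1 lower of the 4 pro-survival genes, 1 higher of the 2 effectors, and 1 higher and 1 lower of the 4 BH3-only genes. The median log2 fold change of the 10 was 0.07, beside -0.0004 over all tested genes.

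Bcl2, the founding pro-survival gene, stood at 0.699, 0.865 and 1.19 FPKM across the Salmonella libraries of wild-type hosts (in the order F-1, M-1, M-2), against 2.40, 1.74 and 2.67 FPKM in wild-type PBS libraries. Every Salmonella library lay below every PBS library. The log2 fold change was -0.83 (SE 0.19, limma adjusted p = 0.00735), and the ratio of mean FPKM was 0.403. Markers of T and NK cells, which carry BCL2, gave 0 higher and 1 lower of 8 tested. Their 9 listed genes summed to 18.1, 9.74 and 5.41 FPKM in wild-type Salmonella libraries, against 14.8, 33.2 and 18.6 FPKM in wild-type PBS libraries. Within the wild-type Salmonella group Bcl2 ran in the opposite order to this sum. Within the wild-type PBS group Bcl2 was lowest in M-1, where the sum was highest. The part of these cells in the Bcl2 result was not tested.

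Mcl1, the short-lived guard that neutrophils need, stood at 66.3, 82.8 and 63.2 FPKM in wild-type Salmonella libraries, against 56.0, 63.5 and 59.0 FPKM in wild-type PBS libraries. The groups overlapped as deposited, by library M-2, and not after scaling. The log2 fold change was 0.45 (SE 0.14, limma adjusted p = 0.0293). On the FPKM as deposited it was 0.24 and did not pass (adjusted p = 0.0913). Neutrophil markers rose in the same libraries, 14 of 14 by the test. In knockout hosts their sum was also higher with Salmonella, with 6 of 14 passing, while the log2 fold change of Mcl1 was 0.04. The part of neutrophils in the Mcl1 result was not tested.

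Bcl2l1, which encodes BCL-XL, did not pass. It stood at 13.2, 18.5 and 16.3 FPKM in wild-type Salmonella libraries, against 14.6, 16.5 and 15.4 FPKM in wild-type PBS libraries, and these overlapped. Its log2 fold change was 0.23 with a 95% interval of -0.03 to 0.49 (limma adjusted p = 0.143).

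Bcl2a1d, an A1 copy typical of activated leukocytes, had the widest spread. It stood at 22.1, 12.3 and 6.97 FPKM in wild-type Salmonella libraries, against 5.41, 11.2 and 7.82 FPKM in wild-type PBS libraries, and library M-2 lay inside the PBS range. The log2 fold change of 0.84 (SE 0.46) did not pass (limma adjusted p = 0.174), and without library M-2 it was 1.33 and passed (adjusted p = 0.0246).

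Bax, the effector that moves from cytosol to mitochondria, stood at 113.7, 130.8 and 106.9 FPKM in wild-type Salmonella libraries, against 103.3, 95.9 and 91.0 FPKM in wild-type PBS libraries. The groups did not overlap, which 45.4% of all tested genes also showed. The log2 fold change was 0.48 (SE 0.15, limma adjusted p = 0.0273). It was 0.27 on the FPKM as deposited and did not pass there (adjusted p = 0.0644). Bak1, the effector that sits in the mitochondrial membrane, overlapped between groups, at 67.7, 54.7 and 72.9 FPKM in wild-type Salmonella libraries, against 92.4, 74.5 and 72.2 FPKM in wild-type PBS libraries. Its log2 fold change was -0.09 with an interval of -0.32 to 0.15.

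Of the BH3-only genes, Pmaip1 changed most. It stood at 2.28, 3.37 and 1.22 FPKM in wild-type Salmonella libraries, against 0.967, 1.03 and 0.589 FPKM in wild-type PBS libraries, counts of 122 to 273 fragments against 58 to 103. Every Salmonella library lay above every PBS library, with a log2 fold change of 1.14 (SE 0.29, limma adjusted p = 0.0121) and a ratio of mean FPKM of 2.66. Bbc3 stood at 5.25, 4.61 and 7.76 FPKM in wild-type Salmonella libraries, against 9.81, 8.87 and 9.24 FPKM in wild-type PBS libraries. It was lower in all 3 Salmonella libraries, with a log2 fold change of -0.46 (SE 0.13, limma adjusted p = 0.0205).

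Bid, the BH3-only protein that caspase-8 cleaves, stood at 12.1, 11.4 and 15.4 FPKM in wild-type Salmonella libraries, against 16.3, 17.3 and 16.0 FPKM in wild-type PBS libraries. The groups did not overlap, but the log2 fold change of -0.15 did not pass (limma adjusted p = 0.328). Bcl2l11, which encodes BIM, stood at 3.66, 5.52 and 6.56 FPKM in wild-type Salmonella libraries, against 6.45, 8.25 and 7.19 FPKM in wild-type PBS libraries, with a log2 fold change of -0.28 (limma adjusted p = 0.181). Library M-2 again lay inside the PBS range.

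The test was limma across all 12 libraries, on log2 values scaled so that most genes did not shift. On the FPKM as deposited the median gene shifted by -0.19 on the log2 scale in wild-type hosts, and 3 of the 10 genes passed, Bcl2 and Bbc3 lower and Pmaip1 higher. Bcl2 passed in all 16 alternatives tried, Pmaip1 in 14, Bbc3 in 12, Bax in 10 and Mcl1 in 9. Leaving out 1 library reduced the 5 calls to 1 without wild-type PBS M-2, and to 2 without wild-type Salmonella F-1 or M-1. They fell to 3 without wild-type PBS F-1 or M-1. In these fits calls over all tested genes fell as well, to between 2049 and 3003, against 4312 with all libraries.

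**Figure D2:**
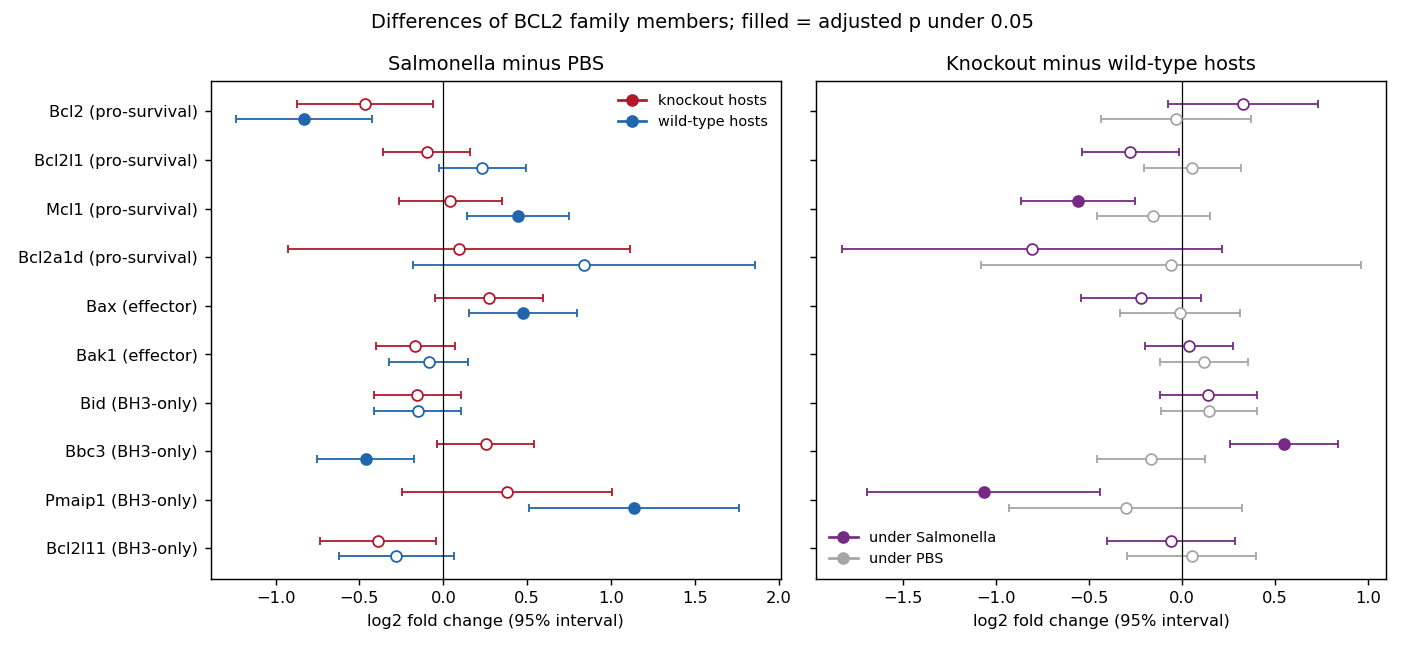
Log2 fold changes (x axis) with 95% intervals for the 10 genes (y axis): Salmonella minus PBS in knockout and wild-type hosts at the left, knockout minus wild-type hosts under Salmonella and under PBS at the right. Filled symbols passed the test. At the left 5 filled symbols are all of wild-type hosts, and at the right 3 filled symbols are all under Salmonella.

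In knockout hosts none of the 10 genes passed the test for Salmonella against PBS, where 0.756% of all tested genes did. At an unadjusted p under 0.05 limma gave 2, Bcl2 and Bcl2l11, where 19.2% of all tested genes reached it, and voom on the recovered fragments called 0 as well. Bcl2 stood at 1.01, 1.78 and 1.52 FPKM in the knockout Salmonella libraries (F-1, then M-1, then M-2), against 2.04, 2.66 and 1.89 FPKM in knockout PBS libraries, and the groups did not overlap, as for 29.4% of all tested genes. Its log2 fold change was -0.47 with an interval of -0.87 to -0.06 (limma adjusted p = 0.205). Bcl2l11 stood at 4.59, 6.11 and 6.01 FPKM in knockout Salmonella libraries, against 7.75, 6.63 and 8.29 FPKM in knockout PBS libraries. Its log2 fold change was -0.39 (limma adjusted p = 0.208).

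The genes that had passed in wild-type hosts had log2 fold changes of smaller size in knockout hosts, and none passed there. Pmaip1 stood at 0.866, 0.807 and 1.04 FPKM in knockout Salmonella libraries, against 0.467, 0.657 and 0.641 FPKM in knockout PBS libraries, with a log2 fold change of 0.38 (interval -0.25 to 1.00). Its groups did not overlap. Bbc3 stood at 9.62, 9.98 and 9.57 FPKM in knockout Salmonella libraries, against 7.97, 6.95 and 9.96 FPKM in knockout PBS libraries, with a log2 fold change of 0.25 (interval -0.04 to 0.54). Mcl1 stood at 51.1, 51.8 and 59.2 FPKM in knockout Salmonella libraries, against 50.4, 57.3 and 52.2 FPKM in knockout PBS libraries, with a log2 fold change of 0.04 (interval -0.26 to 0.35). Bax stood at 127.8, 103.8 and 109.9 FPKM in knockout Salmonella libraries, against 93.7, 86.6 and 107.3 FPKM in knockout PBS libraries, with a log2 fold change of 0.27 (interval -0.05 to 0.59). For the last 3 genes the groups overlapped.

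The other 4 genes did not pass in knockout hosts either. Bcl2a1d stood at 8.53, 7.62 and 7.40 FPKM in knockout Salmonella libraries, against 7.40, 12.3 and 4.45 FPKM in knockout PBS libraries. Bcl2l1 stood at 14.1, 16.1 and 14.0 FPKM in knockout Salmonella libraries, against 15.9, 16.7 and 15.5 FPKM in knockout PBS libraries. Bak1 was the only one of these 4 whose groups did not overlap, at 76.8, 75.7 and 72.9 FPKM in knockout Salmonella libraries, against 86.1, 86.5 and 84.8 FPKM in knockout PBS libraries, with a log2 fold change of -0.17 (limma adjusted p = 0.426). Bid stood at 15.0, 17.2 and 16.1 FPKM in knockout Salmonella libraries, against 16.4, 23.0 and 16.1 FPKM in knockout PBS libraries.

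Between hosts, 3 of the genes differed under Salmonella. Knockout tumours had less Mcl1, less Pmaip1 and more Bbc3 than wild-type tumours, and these passed, 1 higher and 2 lower, where 8.74% of all tested genes passed (2.92% higher and 5.82% lower). Bbc3 averaged 9.72 ± 0.23 FPKM in knockout Salmonella libraries and 5.87 ± 1.67 FPKM in wild-type Salmonella libraries (SD, n = 3 each), with a log2 difference of 0.55 (SE 0.13, limma adjusted p = 0.0319). Mcl1 averaged 54.0 ± 4.5 FPKM in knockout Salmonella libraries and 70.8 ± 10.6 FPKM in wild-type Salmonella libraries (SD, n = 3 each), with a log2 difference of -0.56 (SE 0.14, limma adjusted p = 0.0345). Pmaip1 averaged 0.904 ± 0.121 FPKM in knockout Salmonella libraries and 2.29 ± 1.08 FPKM in wild-type Salmonella libraries (SD, n = 3 each), with a log2 difference of -1.07 (SE 0.29, limma adjusted p = 0.0431). In each of the 3 genes the groups did not overlap, which 27.0% of all tested genes also showed. Bak1 did not overlap either on the FPKM as deposited, but overlapped after scaling, with a log2 difference of 0.04.

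The remaining 7 did not pass. Bcl2 had a log2 difference of 0.33 (interval -0.08 to 0.73), Bcl2l1 of -0.28 (interval -0.54 to -0.02) and Bcl2a1d of -0.81 (interval -1.83 to 0.21). Bax, Bak1, Bid and Bcl2l11 lay between -0.22 and 0.14. This comparison shares the wild-type Salmonella libraries with the one above, so values of both move together when these libraries do. Leaving out wild-type Salmonella M-2 raised the calls to 6, adding Bcl2l1 at -0.36, Bcl2a1d at -1.30 and Bax at -0.38. Leaving out any other of the 6 libraries left 0. Over all tested genes the calls were 4559 without wild-type Salmonella M-2, against 1063 with all libraries. They were 10 to 573 without any other of the 6. In the fit of the knockout and wild-type Salmonella groups alone 0 of the 10 passed, and 12 of all tested genes did. The log2 differences there were 0.56 for Bbc3, -0.54 for Mcl1 and -1.04 for Pmaip1. The neutrophil marker sum was also lower in knockout Salmonella libraries than in wild-type ones, as given above, and its part in the Mcl1 result was not tested.

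Under PBS no gene passed the test of knockout against wild-type hosts, neither among the 10 nor among all 12164 (0.00%). Limma gave 176 genes (1.45%) at an unadjusted p under 0.05 and none of the 10, and voom called 0 genes. The fit shares 1 spread per gene over all 4 groups, so the spread of the Salmonella libraries enters this test too. In the fit of the PBS groups alone 0 genes passed as well. The libraries overlapped in all 10, where 7.89% of all tested genes did not overlap. The log2 differences of the 10 ran from -0.30 for Pmaip1 to 0.14 for Bid. The interval for Bcl2 was -0.44 to 0.37 and for Mcl1 -0.46 to 0.15, and for Bcl2a1d, the least certain, -1.08 to 0.96.

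Whether Salmonella acted differently in the 2 hosts was tested as an interaction, the fold change in knockout hosts less that in wild-type hosts. None of the 10 genes passed, where 0.0247% of all tested genes did, and 1 of the 10 had an unadjusted p under 0.05, as did 14.4% of all tested genes. That gene was Bbc3, with a difference of 0.71 (SE 0.19, unadjusted p = 0.00252, limma adjusted p = 0.217). Bcl2a1d gave -0.75 (SE 0.65), Pmaip1 -0.76 (SE 0.41), Mcl1 -0.40 (SE 0.20), Bcl2 0.36 (SE 0.26) and Bcl2l1 -0.33 (SE 0.17). So a call in wild-type hosts beside none in knockout hosts is not shown to be a difference between hosts in these 12 libraries. Without wild-type Salmonella M-2, 3 of the 10 passed: Bbc3 at 0.83 (limma adjusted p = 0.00998), Pmaip1 at -1.16 (adjusted p = 0.0147) and Mcl1 at -0.58 (adjusted p = 0.0197). Without that library the wild-type Salmonella group has 2 libraries, and calls over all tested genes were 2211, against 3 with it.

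The balance of pro-survival and pro-apoptotic transcripts was read library by library, as a description with no test. Summed FPKM of the 4 pro-survival genes over that of the 6 pro-apoptotic genes was 0.319, 0.362 and 0.381 in knockout Salmonella libraries, against 0.357, 0.423 and 0.326 in knockout PBS libraries. It was 0.50, 0.544 and 0.416 in wild-type Salmonella libraries, against 0.342, 0.452 and 0.432 in wild-type PBS libraries. All 3 wild-type Salmonella libraries lay above all 3 knockout Salmonella libraries, while Salmonella and PBS overlapped in each host. The sum follows its most abundant members. As deposited, the pro-survival sum averaged 101 ± 13 FPKM in wild-type Salmonella libraries and 85.4 ± 7.3 FPKM in wild-type PBS libraries (SD, n = 3 each). The pro-apoptotic sum averaged 209 ± 3 FPKM and 210.4 ± 17.0 FPKM in the same groups. Scaling leaves the ratio of the sums as it is but moves each sum, so these do not show which side changed. The mean scaled log2 level of the pro-apoptotic genes was 4.00 ± 0.11 in wild-type Salmonella libraries and 3.89 ± 0.09 in wild-type PBS libraries. That of the pro-survival genes was 3.72 ± 0.29 and 3.55 ± 0.12.

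With each gene given equal weight the picture was flatter. The mean log2 level of pro-survival genes minus that of pro-apoptotic genes was -0.51 ± 0.06 in knockout Salmonella libraries and -0.37 ± 0.30 in knockout PBS libraries, and -0.28 ± 0.19 in wild-type Salmonella libraries and -0.35 ± 0.18 in wild-type PBS libraries (SD, n = 3 each). The change with Salmonella was -0.14 in knockout hosts and 0.07 in wild-type hosts, both smaller than the spread between PBS libraries.

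Of the few single pairs read, some separated the treatments. Other pairs were not computed, so this has no background share. The ratio of Bcl2 to Bax, a classic index of apoptotic threshold, averaged 0.0130 ± 0.0047 in knockout Salmonella libraries and 0.0233 ± 0.0067 in knockout PBS libraries, and 0.00795 ± 0.00274 in wild-type Salmonella libraries and 0.0236 ± 0.0056 in wild-type PBS libraries (SD, n = 3 each). In both hosts every Salmonella library lay below every PBS library, as for Bcl2 alone, so the ratio is not a separate result. In knockout hosts the nearest libraries stood at 0.0172 with Salmonella and 0.0176 with PBS, and neither Bcl2 nor Bax passed there. Bcl2l1 over Bcl2l11 ran from 2.48 to 3.6 in wild-type Salmonella libraries, against 2.0 to 2.26 in wild-type PBS libraries, and from 2.32 to 3.08 in knockout Salmonella libraries, against 1.87 to 2.52 in knockout PBS libraries, where the groups overlapped. Mcl1 over Bax overlapped between treatments, at 0.479 ± 0.072 in knockout Salmonella libraries and 0.562 ± 0.090 in knockout PBS libraries, and in wild-type hosts at 0.602 ± 0.027 in Salmonella libraries and 0.618 ± 0.066 in PBS libraries (SD, n = 3 each). The 4 BH3-only genes summed to 30.1 to 34.1 FPKM in knockout Salmonella libraries, against 32.6 to 37.3 FPKM in knockout PBS libraries, which overlapped. They summed to 26.4 ± 4.0 FPKM in wild-type Salmonella libraries and 34.0 ± 1.3 FPKM in wild-type PBS libraries (SD, n = 3 each), without overlap. These sums too are of FPKM as deposited.

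**Figure D3:**
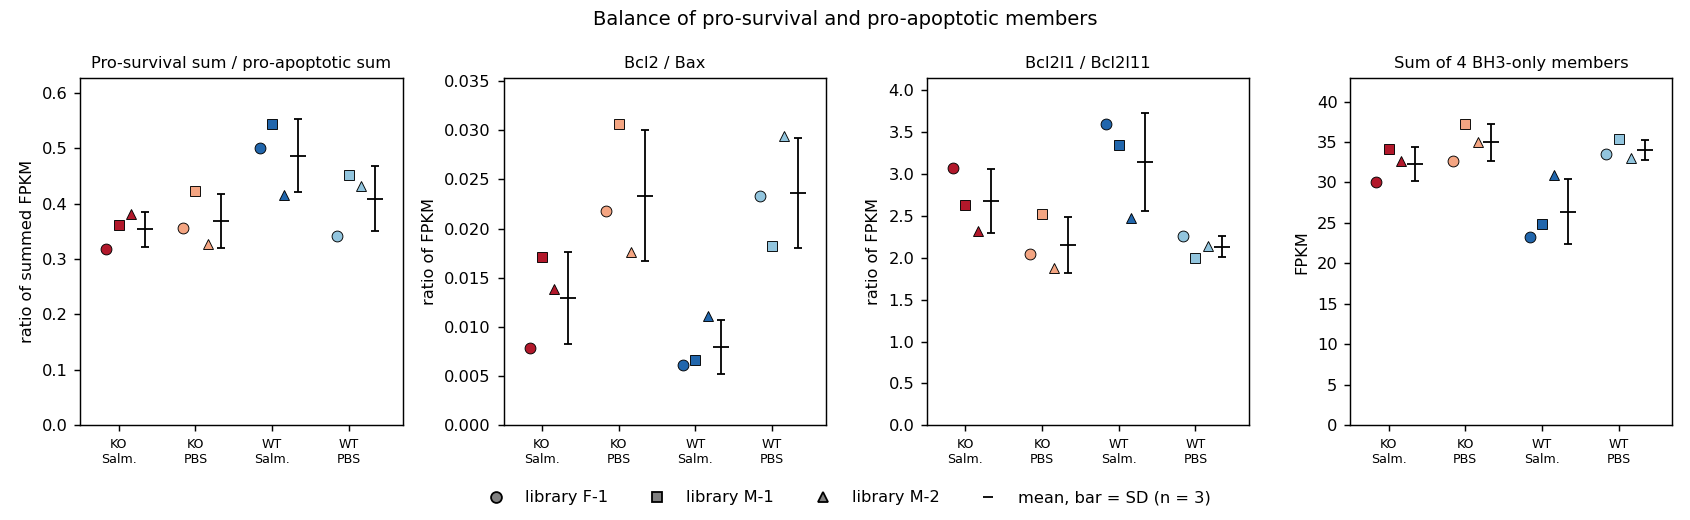
Readings of the balance (y axes, from 0) in the 4 groups, 1 symbol per library with the mean and SD beside them: pro-survival over pro-apoptotic summed FPKM, Bcl2 over Bax, Bcl2l1 over Bcl2l11, and the summed FPKM of the 4 BH3-only genes. The Bcl2 to Bax ratio is lower in Salmonella than in PBS libraries of both hosts, while the ratio of sums overlaps between treatments.

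The A1 copies were read side by side because their fragments may be split. Bcl2a1b was the most abundant copy, at 21.0 ± 1.0 FPKM in knockout Salmonella libraries and 22.8 ± 11.5 FPKM in knockout PBS libraries, and at 43.0 ± 20.4 FPKM in wild-type Salmonella libraries and 23.1 ± 8.3 FPKM in wild-type PBS libraries (SD, n = 3 each). The log2 fold changes with Salmonella in wild-type hosts were 1.01 for Bcl2a1b and 1.04 for Bcl2a1a, beside 0.84 for Bcl2a1d, and none of the 3 passed (limma adjusted p = 0.119, 0.134 and 0.174). In knockout hosts they were 0.03 for Bcl2a1b, -0.09 for Bcl2a1a and 0.09 for Bcl2a1d. All 3 copies had their lowest wild-type Salmonella value in library M-2. The neutrophil sum was also lowest there among these 3 libraries, at 2881 FPKM. It was highest in M-1, at 19201 FPKM, which held less of each copy than F-1, at 3248 FPKM. In both PBS groups and the wild-type Salmonella group, each copy ran in the same order as the T and NK marker sum. In the knockout Salmonella group this sum was highest in M-2, at 12.7 FPKM, while each copy was highest in F-1. The part of neutrophils, or of T and NK cells, in the A1 values was not tested.

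**Figure D4:**
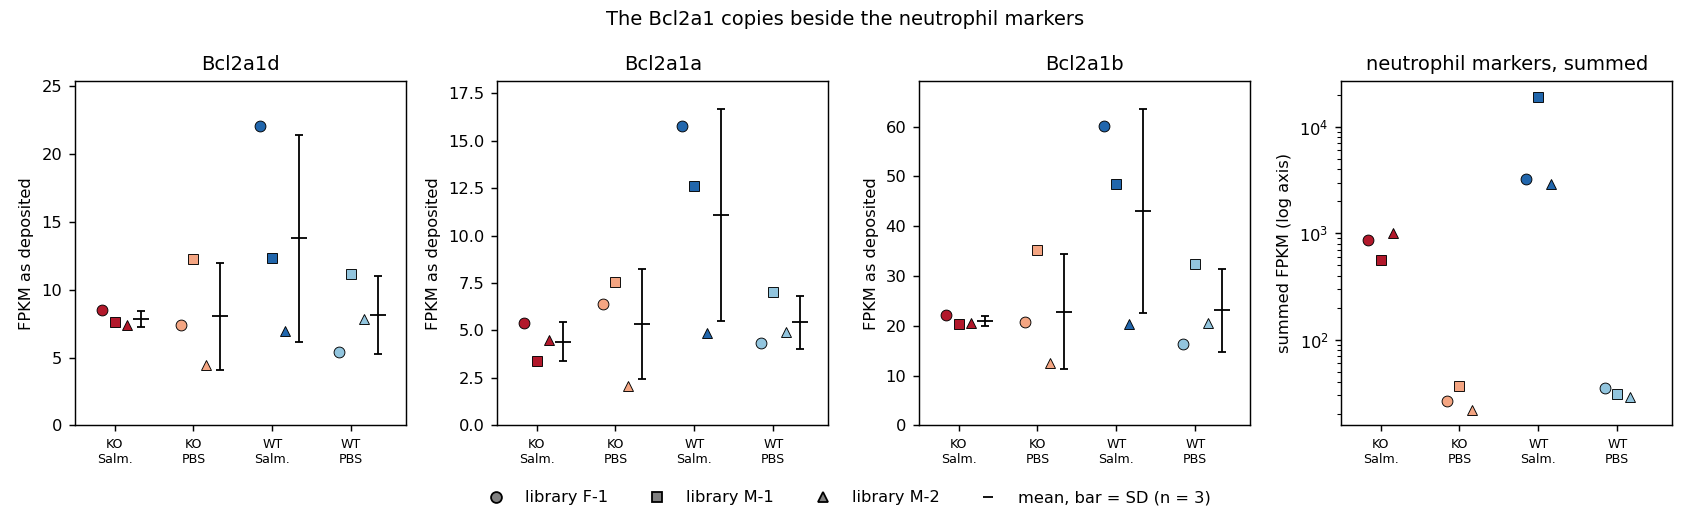
Deposited FPKM of Bcl2a1d, Bcl2a1a and Bcl2a1b in the 4 groups (y axes from 0, mean and SD beside the symbols) and the summed FPKM of 14 neutrophil markers (log axis, libraries only). In wild-type hosts given Salmonella all 3 copies are highest in library F-1, while the neutrophil sum is highest in M-1.

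Other genes of the apoptosis pathways were taken from 4 lists, and their calls in wild-type hosts stand beside the 19.2% of all tested genes that were higher and the 16.2% lower. The lists themselves were not tested. Of the other BCL2 family genes 10 of 15 listed were tested in wild-type hosts, and 0 were higher and 1 lower with Salmonella, with a median log2 fold change of -0.11. The gene that passed was Bnip3, a hypoxia-induced mitophagy receptor, at 178 ± 13 FPKM in wild-type Salmonella libraries and 280.3 ± 36.7 FPKM in wild-type PBS libraries (SD, n = 3 each; log2 fold change -0.44, limma adjusted p = 0.0255). Its relative Bnip3l gave -0.18 and Bcl2l2, which encodes BCL-W, gave -0.17, and neither passed, although on the FPKM as deposited both did.

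Downstream of the mitochondria 5 of 16 genes were higher and 2 lower with Salmonella in wild-type hosts, with a median log2 fold change of 0.06, beside 35.4% of all tested genes called in either direction. Birc3, the inhibitor of apoptosis cIAP2, averaged 14.7 ± 3.8 FPKM in wild-type Salmonella libraries and 6.65 ± 0.41 FPKM in wild-type PBS libraries (SD, n = 3 each; log2 fold change 1.25, limma adjusted p = 0.00313). Endog, a mitochondrial nuclease, gave 0.63 (adjusted p = 0.00716). Casp9, the caspase of the apoptosome, gave -0.63 (adjusted p = 0.00818).

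In the death receptor pathway 4 of 13 genes were higher and 2 lower, with a median of 0.08, beside the same 35.4%. Fas, the receptor of FAS ligand, averaged 11.6 ± 6.2 FPKM in wild-type Salmonella libraries and 2.61 ± 0.16 FPKM in wild-type PBS libraries (SD, n = 3 each; log2 fold change 2.01, limma adjusted p = 0.00825). Ripk3, the kinase of necroptosis, averaged 7.07 ± 1.77 FPKM in wild-type Salmonella libraries and 2.69 ± 0.43 FPKM in wild-type PBS libraries (SD, n = 3 each; log2 fold change 1.42, limma adjusted p = 0.00316). Tradd, the adaptor of TNF receptor 1, gave -0.32 (adjusted p = 0.0265).

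Among p53 and its targets 2 of 15 genes were higher and 3 lower, with a median of 0.04, again beside 35.4% of all tested genes. Phlda3, an inhibitor of AKT, averaged 36.4 ± 10.1 FPKM in wild-type Salmonella libraries and 75.5 ± 9.7 FPKM in wild-type PBS libraries (SD, n = 3 each; log2 fold change -0.87, limma adjusted p = 0.00336). Tigar, a regulator of glycolysis, gave 0.52 (adjusted p = 0.00601) and Aen, a nuclease, 0.42 (adjusted p = 0.0275). On the FPKM as deposited Tigar gave 0.33 and Aen 0.23, and neither passed (adjusted p = 0.0631 and 0.127).

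In the fit of the wild-type groups alone the calls of Bnip3, Tradd and Aen were lost (adjusted p = 0.0836, 0.0714 and 0.0862). Bnip3 was also lost without wild-type Salmonella F-1, PBS M-1 or PBS M-2, Tradd without Salmonella F-1, Salmonella M-1, PBS M-1 or PBS M-2, and Aen without any 1 of these 6 libraries other than Salmonella M-2. Their log2 fold changes kept their direction in that fit and in those without each of the 6 libraries, at -0.54 to -0.33 for Bnip3, -0.40 to -0.24 for Tradd and 0.305 to 0.58 for Aen.

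In knockout hosts 0 genes of the 4 lists passed for Salmonella against PBS. At an unadjusted p under 0.05 limma gave 0 of 10, 4 of 16, 2 of 13 and 7 of 15 in the order of the lists above, where 19.2% of all tested genes reached it. Under Salmonella, Ripk3 was lower in knockout than in wild-type hosts (log2 difference -1.23, limma adjusted p = 0.0209), and Phlda3 (0.74, adjusted p = 0.0231) and Tradd (0.43, adjusted p = 0.0281) were higher. In the fit of these groups alone none of the 3 passed (adjusted p = 0.111, 0.108 and 0.105 for Ripk3, Phlda3 and Tradd). Phlda3 and Tradd were also lost without any 1 of the 6 libraries other than wild-type Salmonella M-2, and Ripk3 without wild-type Salmonella F-1 or M-1 or knockout Salmonella M-1 or M-2. With all libraries the interaction passed for none of the pathway genes named.

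Without wild-type Salmonella M-2 more of them passed, and so did more of all tested genes. Calls over all tested genes were then 4559 between hosts under Salmonella, against 1063 with that library, and 2211 for the interaction, against 3. The named genes had also been picked by small p-values in wild-type hosts, so their count is not a result about the pathways. Under Salmonella, knockout minus wild-type hosts then gave -1.01 for Birc3 (limma adjusted p = 0.000799), -1.71 for Fas (adjusted p = 0.00496), -0.43 for Endog (adjusted p = 0.0482) and 0.53 for Casp9 (adjusted p = 0.00216). The interaction passed for 6: Ripk3 at -1.77 (limma adjusted p = 0.00369), Fas at -1.89 (adjusted p = 0.0247), Birc3 at -1.19 (adjusted p = 0.00532), Casp9 at 0.50 (adjusted p = 0.0259), Phlda3 at 0.84 (adjusted p = 0.0318) and Tradd at 0.43 (adjusted p = 0.0386). These share the 2 remaining wild-type Salmonella libraries.

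**Figure D5:**
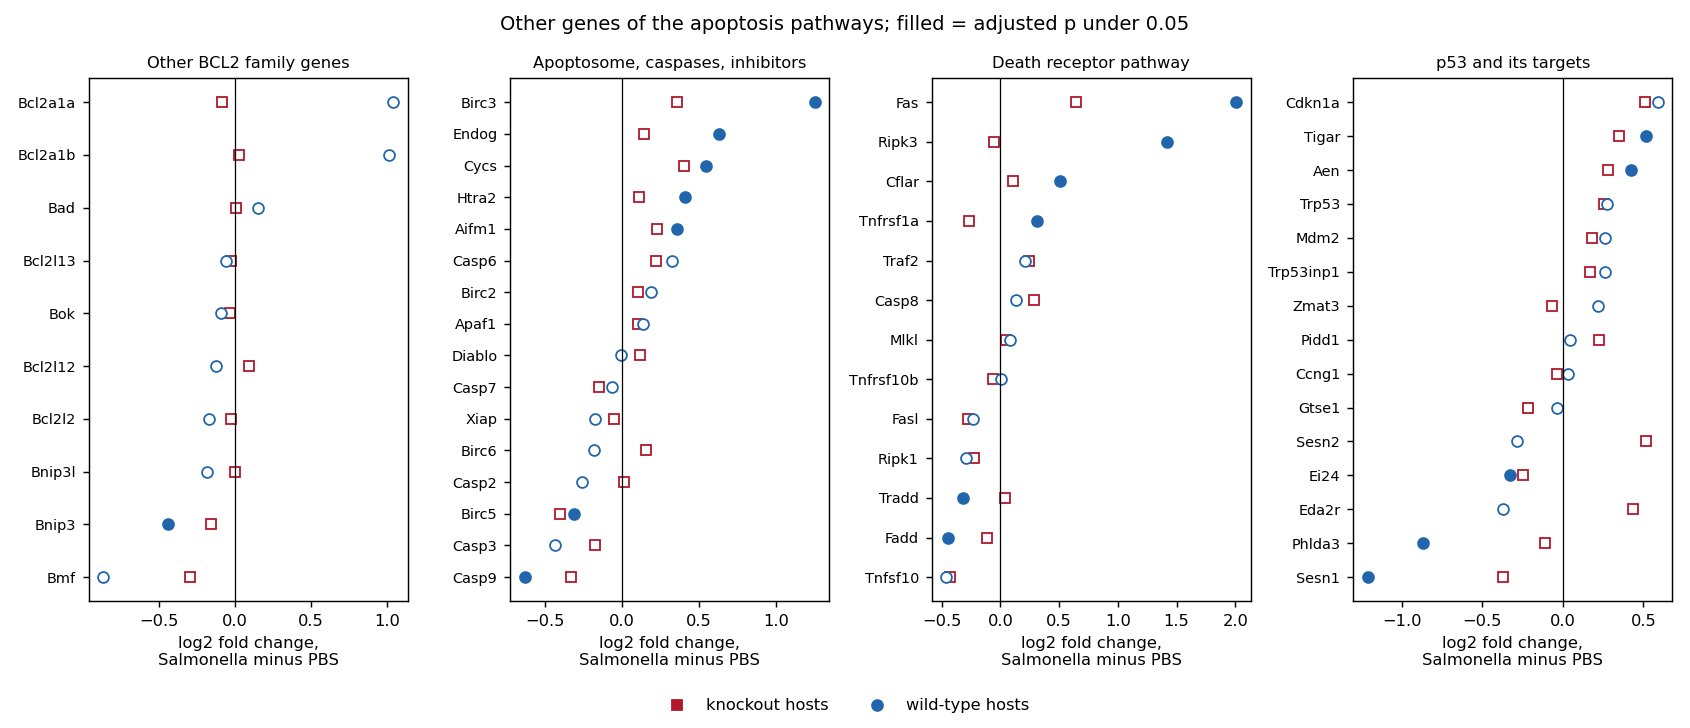
Log2 fold change of Salmonella minus PBS (x axis) for the tested genes of the 4 lists (y axis, ordered by the wild-type value), squares for knockout and circles for wild-type hosts, filled where the test was passed. Every filled symbol is a wild-type circle, and each list has filled circles below 0.

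For 3 of the genes the non-family genes with the most similar profile over the 12 libraries were looked up, by Pearson's r of log2 level, as a description in which group differences, scaling and depth are shared by all points. Bcl2a1d was closest to Stat4, the transcription factor of interleukin-12 signalling (r = 0.95), Il7r, the interleukin-7 receptor chain (0.95), and Serpinb6b, an intracellular serpin (0.95). Mcl1 was closest to Sgms1, a sphingomyelin synthase (r = 0.98), Ftl1, the ferritin light chain (0.98), and Tpd52 (0.97). Bbc3 was closest to Marchf8, a membrane-bound ubiquitin ligase (r = 0.96), Timmdc1, an assembly factor of respiratory complex I (0.93), and Me1, the cytosolic malic enzyme (0.92). Ftl1 averaged 2864 ± 552 FPKM in wild-type Salmonella libraries and 2149 ± 349 FPKM in wild-type PBS libraries, and Timmdc1 18.0 ± 0.5 FPKM in knockout Salmonella libraries and 11.0 ± 2.4 FPKM in wild-type Salmonella libraries (SD, n = 3 each).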

How the data were processed

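RNA of MC38 tumours was sequenced in 12 libraries, grouped by the genotype and treatment labels, with replicate names from the titles. TRIzol RNA was made into libraries with the VAHTS Universal V6 kit, per the labels' protocols, which give no strand setting. The submitters' processing notes name fastp, HISAT2 and HTSeq, with no role. The build and annotation were not given in the labels or notes used here. The authors deposited 1 table per library, whose values act like FPKM (per gene length and per library total). That unit was inferred from the values: all 18609 genes (100.00%) gave whole fragments within 0.01, and 387 were at 0 throughout. The limit allowed by a count of 0, 3 fragments, is 0.0774 to 0.0983 FPKM in a 1 kb gene, for counting error only.

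FPKM were divided by a scaling factor per library (an unweighted trimmed mean of log ratios that drops 30% of ratios and 5% of levels from either end), and log2(FPKM + 0.5) was fitted with limma 3.58.1 in R 4.3.3 with trend and robust moderation, on all 12 libraries, keeping genes that reached 0.5 FPKM in 3 or more libraries. With this pseudocount, the log2(FPKM + 0.5) scale understates fold changes of low genes. P-values are two-sided and adjusted by Benjamini-Hochberg over 12164 genes, with 0.05 as threshold. The fit was also run on simulated counts with the same spread setting in every group and no outlying library. That run cannot show how the fit behaves with a library such as wild-type Salmonella M-2. The 10 genes and the gene lists were chosen with earlier results of these data known. Genes named beside the 10 are for each pathway list the 3 smallest p-values in wild-type hosts, with any called in knockout hosts or for the interaction (none were), the 3 closest profiles of Bcl2a1d, Mcl1 and Bbc3, and the 2 leading neutrophil markers. Alternatives were another scaling, FPKM as deposited, other filters and pseudocounts, only the groups compared, a replicate block, voom on recovered fragments, no trend, and each library left out. Promoter windows came from RefSeq (GRCm38.p6) and transcripts from GENCODE M21.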

Additional observations from a re-analysis of the deposited data

Results flagged for a closer look

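On the scaled log2 values, 2 of the followed BCL2 family genes and named pathway genes moved to opposite sides in the hosts. All wild-type Salmonella libraries lay on one side of their PBS mean and all knockout Salmonella libraries on the other side of theirs. Only these genes were screened, and the pathway genes had been picked by small p-values in wild-type hosts. The share of all tested genes meeting this rule was not counted, so the count of 2 has no background. Bbc3 was lower with Salmonella in 3 of 3 wild-type libraries and higher in 3 of 3 knockout libraries, and the knockout effect minus the wild-type effect was 0.7146 on the log2 scale (limma adjusted p = 0.217). Tradd gave a difference of 0.3573 (limma adjusted p = 0.31). On the FPKM as deposited Tradd averaged 45.8 ± 1.1 in knockout Salmonella libraries and 45.6 ± 4.3 in knockout PBS libraries (SD, n = 3 each), and knockout Salmonella F-1, at 44.6 FPKM, lay below that PBS mean. Neither passed the test of the difference over all tested genes, and the cause was not tested. Without wild-type Salmonella M-2 both passed, Bbc3 at 0.83 (adjusted p = 0.00998) and Tradd at 0.43 (adjusted p = 0.0386). In that fit 2211 of all tested genes passed, against 3 with that library.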

How the results depend on the processing

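Counts of the 10 genes that passed moved with some settings. In wild-type hosts (Salmonella against PBS) 5 passed as reported, 3 on the FPKM as deposited and 2 with only the groups compared, and 1 to 6 with 1 library left out. For knockout against wild-type hosts under Salmonella, 3 passed as reported, 1 with no filter and 0 with only the groups compared, and 0 to 6 with 1 library left out. For the interaction 0 passed as reported, and 0 to 3 with 1 library left out. Calls over all tested genes moved too. With 1 library left out they ran from 2049 to 6199 in wild-type hosts and from 10 to 4559 between hosts under Salmonella. For the interaction they ran from 2 to 2211. With only the groups compared they were 2434 in wild-type hosts, 12 between hosts under Salmonella and 184 in knockout hosts. Fits without a library or a group have fewer residual degrees of freedom, and fits with no filter adjust over more genes. What moved the counts, up or down, was not tested. No result changed direction while called. With FPKM as deposited, calls over all genes split 1500 higher and 3365 lower in wild-type hosts, against 2337 and 1975 as reported, and 834 higher and 591 lower between hosts under Salmonella, against 355 and 708, since the median gene then shifts by -0.19 and 0.16. With the title label as a replicate block, 5, 0, 3, 0 and 0 of the 10 passed in the order of the comparisons, and it changed no count among them, while calls over all genes in knockout hosts were 46 against 92. The labels do not pair the libraries: deviations of same-numbered libraries correlated at -0.33 to 0.40. The voom fit on recovered fragments called 5 of the 10 in wild-type hosts and 2 between hosts under Salmonella, and over all genes 22 in knockout hosts. The equal-weight balance changed with Salmonella by -0.16 to 0.18 in wild-type hosts and by -0.29 to 0.01 in knockout hosts over all settings, so its sign changed with the setting. Of the comparisons of single members under the alternatives, 803 kept their side of the threshold, 40 lost a call and 7 gained one. The 803 include comparisons not called as reported, which had no call to lose. Each of the 5 calls in wild-type hosts and the 3 between hosts under Salmonella had 16 alternatives. Between hosts under Salmonella, Bbc3 passed in 10 of these, Mcl1 in 9 and Pmaip1 in 8, and the wild-type counts are given above. Pmaip1, at 41 to 273 fragments per library, and Bcl2a1d, at 129 to 589, rest on the fewest reads of the 10 genes.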
